A study of Mus musculus with 18 samples.

Results

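The mouse mitochondrial genome was followed here through all 37 of its genes, taken as the rows whose symbol begins with mt- among the 48440 genes of the deposited table. They comprise 13 mRNA genes, 2 rRNA genes and 22 tRNA genes. RNA of mouse brain was measured by poly(A)-selected, randomly primed sequencing in 18 libraries, 6 in each of 3 groups. The groups were WT mice on control diet, 5xFAD mice on control diet and 5xFAD mice fed fucose, and each diet had lasted 1 month. 5xFAD is a transgenic model of amyloid deposition that carries mutated human transgenes driven by the neuronal Thy1 promoter, and WT mice lack them. Fucose, the sugar of the diet, is a common end residue of the glycans on proteins. Brain is the only tissue term in the labels, with neither age nor sex, region or batch recorded, and nothing says that each library is a separate animal, so p-values measure only the spread between these libraries.

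Mitochondrial DNA is a small circle kept in many copies per cell. Both of its strands are transcribed by the polymerase Polrmt into long precursors, from which the tRNAs are cut out, releasing the rRNAs and mRNAs between them. The mRNAs encode core subunits of respiratory complexes I, III and IV and of the ATP synthase (complex V), which neurons depend on for their high ATP demand. Most of these mRNAs receive a short poly(A) tail, the rRNAs receive very short tails, and mature tRNAs end in CCA. Poly(A) selection can therefore capture the classes unequally, so the levels of different classes are not read as amounts of RNA.

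The libraries held 31.45 to 44.23 M gene reads, and replicates of a group were not copies of one another (chi-square per degree of freedom 15.1 to 71.1 over 45 pairs). Mitochondrial genes received 1729352 to 2604075 reads per library. Neuron markers were present in every library, with summed normalized counts of 210464 to 267082 for 7 markers, as were oligodendrocyte markers. In 3 libraries, 1 of each group, Xist was very low. Values are gene counts divided by 1 size factor per library, called normalized counts here, and levels between genes are compared per kilobase of gene length.

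Part of the mitochondrial genome has near-identical copies in the nucleus, and these decide how several members can be read, so their sequences come first. Matching the mitochondrial transcripts to all annotated mouse transcripts (GENCODE M21, mm10) found 10 nuclear copies with at least 95% identity over at least 100 bases. Of these, 7 stood in a row on the minus strand of chr1:24611535-24616197, all annotated as unprocessed pseudogenes, and 3 on chromosome 2. The first 60 bases of mt-Co2 (chrM:7013-7072, plus strand), of its chromosome 1 copy Gm28661 (chr1:24615506-24615565, minus strand) and of its chromosome 2 copy Gm13341 (chr2:22587903-22587962, minus strand) show both kinds of copy, with capitals marking bases that differ from mt-Co2.
mt-Co2: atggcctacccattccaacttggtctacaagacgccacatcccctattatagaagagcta
Gm28661: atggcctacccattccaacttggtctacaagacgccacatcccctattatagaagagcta
Gm13341: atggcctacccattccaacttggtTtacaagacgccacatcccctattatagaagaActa
Gm28661 was identical to mt-Co2 over 681 of its 684 bases, whereas Gm13341 differed at 2 of the 60 bases shown and at 16 aligned bases in all. The alignment of Gm13341 also held 1 gap, and that copy is 672 bases long. The single difference between mt-Nd3 and its chromosome 1 copy Gm28438 over 345 aligned bases, T3C counted from the first base of mt-Nd3, lies in the first 23 bases of mt-Nd3 (chrM:9459-9481, plus strand) and Gm28438 (chr1:24613097-24613119, minus strand), with the differing base in capitals.
mt-Nd3: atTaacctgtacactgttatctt
Gm28438: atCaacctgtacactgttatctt

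The chromosome 1 block repeats the mitochondrial map from within mt-Co1 to within mt-Nd4. Gm10925 was identical to mt-Atp6 over 678 of 681 bases, Gm28437 to mt-Co3 over 783 of 784 bases and Gm10222 to mt-Nd4l over 294 of 297 bases. Gm29216 matched only the last 483 of the 1545 bases of mt-Co1, with the single difference A1066T, and Gm28439 was identical to the first 876 of the 1378 bases of mt-Nd4. Of the 6 distances between neighbouring copies, 5 equalled the distance on the mitochondrial map and the sixth differed by 1 base (74 against 73). mt-Atp8 had no annotated copy, but its place on the map falls in the 233 bases between Gm28661 and Gm10925. No gene is annotated there, and the sequence was not analysed here. The tRNA genes mt-Ts1, mt-Td, mt-Tk, mt-Tg and mt-Tr likewise have their places on the map between neighbouring copies. A read from an identical stretch cannot be assigned to one location by its sequence, and how such reads were counted is not stated in any source used. The counts of mt-Co2, mt-Atp8, mt-Atp6, mt-Co3, mt-Nd3 and mt-Nd4l are therefore uncertain as measures of mitochondrial RNA. The same limit applies to mt-Nd4 over 63.57% of its length and to mt-Co1 over 31.26%. Their levels per kilobase of the full gene, and their places in an order of levels, are uncertain to that extent. For mt-Ts1 the limit is that of mt-Atp8.

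In normalized counts per kilobase, averaged over the 18 libraries, mt-Co1 (catalytic subunit of complex IV, chrM:5328-6872) stood highest at 400232, with a range of 350784 to 448015. It was followed by mt-Cytb (cytochrome b, the mitochondrially encoded subunit of complex III, chrM:14145-15288) at 316833 and mt-Nd1 (complex I, chrM:2751-3707) at 306617. mt-Co1 exceeded mt-Cytb in 18 of 18 libraries although their ranges overlapped, and mt-Cytb exceeded mt-Nd1 in 14 of 18. Next came further complex I subunits, mt-Nd2 (chrM:3914-4951) at 193149 and mt-Nd4 (chrM:10167-11544) at 170125 per kilobase, in this order in 17 of 18 libraries. The 12S rRNA mt-Rnr1 (chrM:70-1024), of the small mitoribosomal subunit, reached 129683 and the 16S rRNA mt-Rnr2 (chrM:1094-2675), of the large subunit, 104874. mt-Nd6 (chrM:13552-14070), the only mRNA gene on the minus strand and also a complex I subunit, reached 107173 and exceeded mt-Rnr2 in 9 of 18 libraries, so these neighbours in the order could not be told apart. mt-Nd5 (complex I, chrM:11742-13565) closed the abundant group at 56307, below mt-Rnr2 in all 18 libraries and with no overlap of ranges.

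The other 6 mRNA genes lie side by side at chrM:7013-10173 and were far lower. mt-Co2 (complex IV) averaged 13061 normalized counts per kilobase, mt-Atp6 (chrM:7927-8607, complex V) 12459 and mt-Co3 (chrM:8607-9390, complex IV) 8164. mt-Nd3 (chrM:9459-9806, complex I) averaged 3914, mt-Nd4l (chrM:9877-10173, complex I) 776 and mt-Atp8 (chrM:7766-7969, complex V) 334. The lowest mean of the 7 abundant mRNAs was 4.31 times the highest mean of these 6. mt-Co2 exceeded mt-Atp6 in 10 of 18 libraries, whereas mt-Nd4l exceeded mt-Atp8 in all 18. The abundant mRNAs had coefficients of variation of 7.27% to 14.98% over the libraries and the 6 low ones 15.8% to 56.1%. The level steps down between mt-Co1 and mt-Co2 and up between mt-Nd4l and mt-Nd4. The mRNA genes in between, mt-Atp8 aside, are those copied at near full length on chromosome 1. mt-Atp8 and mt-Nd4l are also the shortest mRNA genes, at 204 and 297 bases. mt-Atp8 shares chrM:7927-7969 with mt-Atp6, and mt-Nd4l shares chrM:10167-10173 with mt-Nd4. The part of the copies, of gene length and of shared bases in these levels was not tested.

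**Figure D1:**
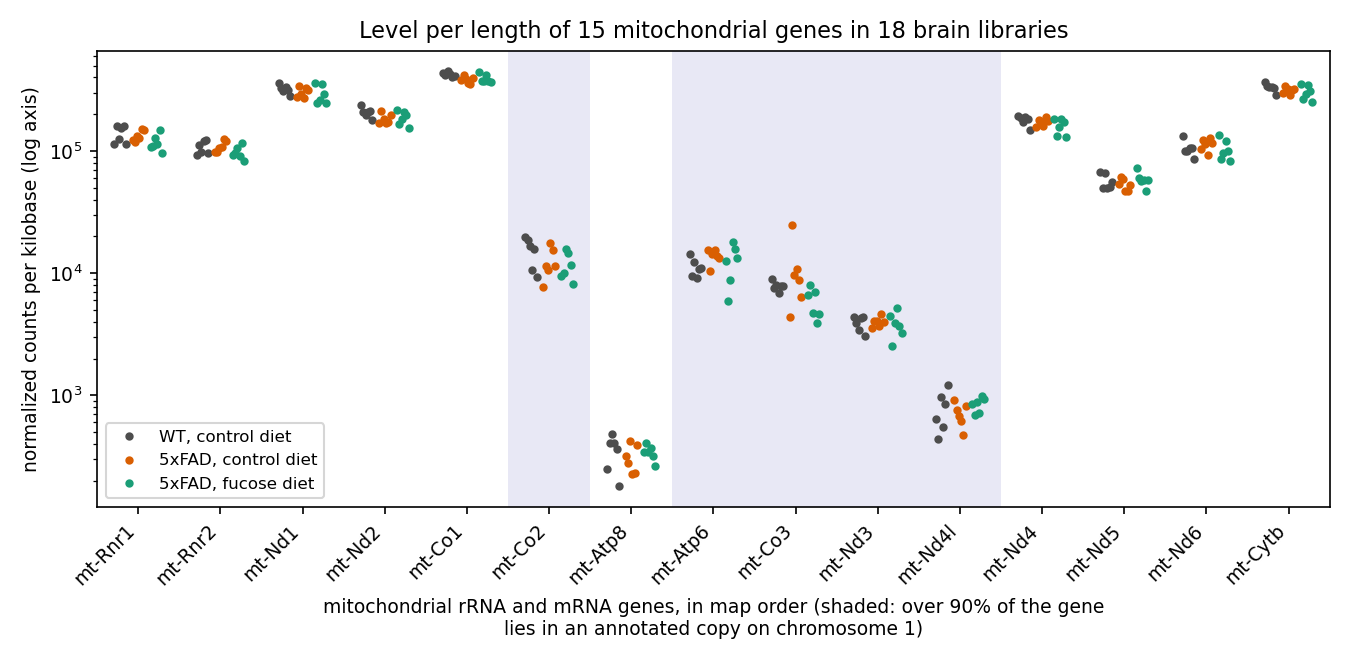
Normalized counts per kilobase (log axis) of the 2 rRNA and 13 mRNA genes in map order, 1 point per library, in the 3 groups of 6. The shaded genes, which lie over 90% in a chromosome 1 copy, and mt-Atp8 between them sit below every other gene, mt-Atp8 at a mean of 334 and mt-Co1 at 400232.

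The 5 chromosome 1 copies of near full length carried a large part of the reads of gene and copy together. Gm28661 held 26.0% to 79.5% (median 53.1%) of the summed counts of itself and mt-Co2, Gm10925 held 29.5% to 59.0% of its sum with mt-Atp6, and Gm28437 held 16.8% to 69.7% of its sum with mt-Co3. The shares were 15.5% to 30.7% for Gm28438 with mt-Nd3 and 35.5% to 53.0% for Gm10222 with mt-Nd4l. The other 2 copies of that block, which span only part of the gene, had shares of 0.51% to 2.07% (Gm29216 with mt-Co1) and 0.43% to 1.01% (Gm28439 with mt-Nd4). The chromosome 2 copies had small shares although 2 of them span the whole gene. Gm13340, 97.61% identical to mt-Co1 over its full length, had 368 to 939 normalized counts, or 0.057% to 0.145% of the sum with mt-Co1. Gm13341, 95.91% identical to mt-Co2 over its full length, had 79.3 to 257, or 0.92% to 2.78%, and Gm13339, 96.67% identical to part of mt-Nd2, had 29.8 to 84.9, or 0.014% to 0.052%.

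The split between gene and copy varied from library to library within each group. Gm28661 had 31263 normalized counts in 5xFAD fucose library 5 against 3355 to 12306 in the other 5 of that group, while mt-Co2 in that library was 8037, within its group range of 5562 to 10794. mt-Co3 had 19536 normalized counts in 5xFAD control library 2 against 3401 to 8464 in the other 5, while Gm28437 there was 3942, within its group range of 3007 to 8011. Adding the copy to its gene lowered the coefficient of variation of mt-Co3 from 56.1% to 33.4% and that of mt-Nd3 from 15.8% to 12.5%. It raised that of mt-Co2 from 29.0% to 35.2%, and left mt-Atp6 (24.2% and 25.5%) and mt-Nd4l (25.6% and 26.8%) near where they were. With the copies added, mt-Co2 had 29992, mt-Atp6 22176 and mt-Co3 14730 normalized counts per kilobase, beside 56307 for mt-Nd5. Any reads counted at neither place are missing from these sums. The sums therefore cannot show what part the copies have in the low levels.

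**Figure D2:**
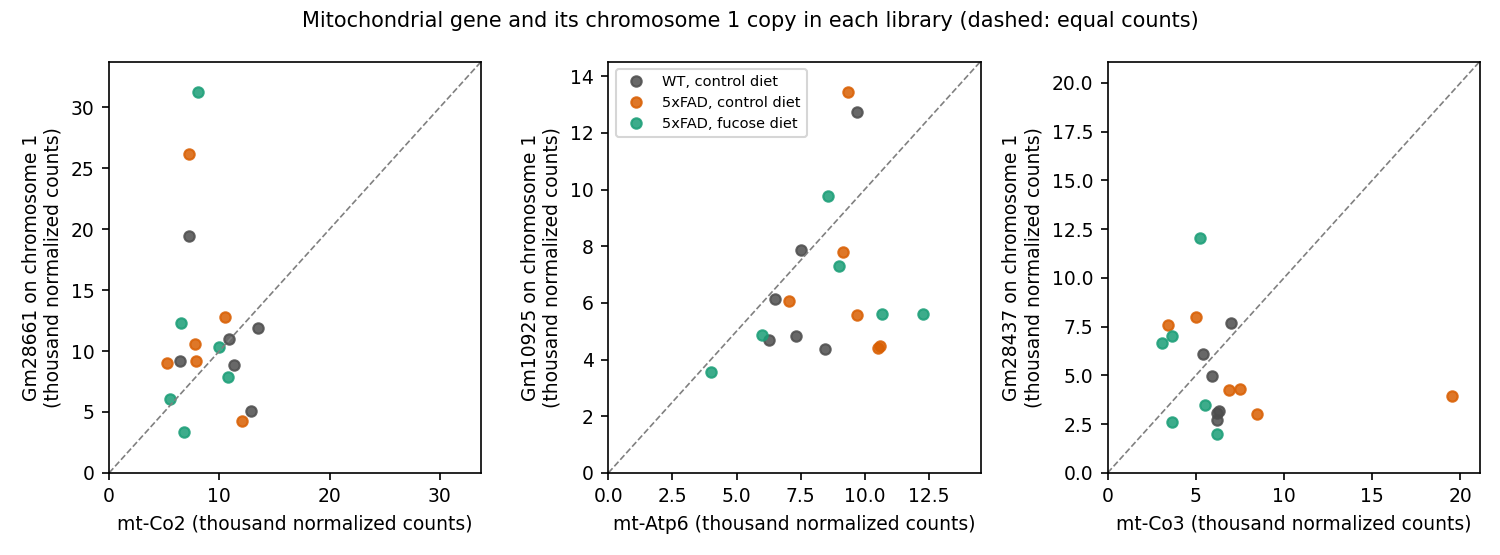
Normalized counts, on axes in units of 1000, of mt-Co2, mt-Atp6 and mt-Co3 (horizontal) against their chromosome 1 copies (vertical), 1 point per library, coloured by group, with the dashed line at equal counts. The points lie on both sides of the line in each panel, and single libraries stand apart, such as the 5xFAD control library with 19536 counts of mt-Co3 and the 5xFAD fucose library with 31263 counts of Gm28661.

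The tRNA genes received 32123 reads in all libraries together, of which mt-Tp (proline) held 30152, or 93.9%. Only 5 of the 22 passed the filter on low counts, mt-Tp, mt-Te (glutamic acid), mt-Tn (asparagine), mt-Tc (cysteine) and mt-Ts1 (serine), and all 5 are among the 8 tRNA genes of the minus strand. The 14 tRNA genes of the plus strand, from which all mRNAs except mt-Nd6 and both rRNAs are read, had 346 reads in all, and the 17 tRNA genes that did not pass, on either strand, had 6 to 120 reads each. mt-Tp and mt-Tt (threonine) lie next to each other on opposite strands, both of 67 bases, and are shown because they had 30152 and 10 reads. They differ in their neighbours as well as in strand. mt-Tt fills the bases between mt-Cytb, which ends at chrM:15288, and mt-Tp, whereas no member has a map position above that of mt-Tp. The part of strand and of neighbouring genes in these counts was not tested. The sequences are those of GENCODE M21, mt-Tp from chrM:15356-15422 on the minus strand and mt-Tt from chrM:15289-15355 on the plus strand, with no capitals.
mt-Tp: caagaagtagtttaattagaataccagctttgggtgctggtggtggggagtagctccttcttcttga
mt-Tt: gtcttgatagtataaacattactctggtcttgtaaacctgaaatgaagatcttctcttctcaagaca
Whether counting used strand is not given in the sources used here, so reads over mt-Tp, mt-Nd6 and the other minus-strand genes cannot be told apart from plus-strand precursor reads over the same bases. mt-Tp reads amounted to 3.54 to 5.50 per 1000 mt-Cytb reads. The other 4 tRNAs that passed had 7.44 to 39.5 normalized counts per library, a depth at which counting error alone is large.

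Mitochondrial genes together took 5.86 ± 0.31% of gene reads in WT control libraries, 5.61 ± 0.27% in 5xFAD control libraries and 5.50 ± 0.42% in 5xFAD fucose libraries (mean ± SD, n = 6 each). The mRNA share ran from 4.75% to 5.65% (median 5.07%) in WT, from 4.49% to 5.29% (median 4.81%) in 5xFAD on control diet and from 4.41% to 5.39% (median 4.61%) in 5xFAD on fucose. The ranges of the 3 groups overlapped over most of their length. Group means of the mRNA share were 5.09%, 4.82% and 4.79%. The differences were -0.263 percentage points for 5xFAD against WT, -0.0305 for fucose against control diet and -0.294 for fucose against WT. Each was smaller than the SD of either group compared (0.324, 0.278 and 0.438). The difference between diets turned positive when any of 5xFAD fucose libraries 2, 3, 5 and 6 or 5xFAD control library 2 was left out, the last giving 0.0618. That between genotypes was -0.151 without WT control library 1 and -0.126 without the counts of mt-Co1. The rRNA share was 0.771 ± 0.097%, 0.781 ± 0.077% and 0.698 ± 0.081% in the same order of groups. Because reads are shares of a library, fewer mitochondria-rich cells and less mitochondrial RNA per cell cannot be told apart in bulk tissue.

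**Figure D3:**
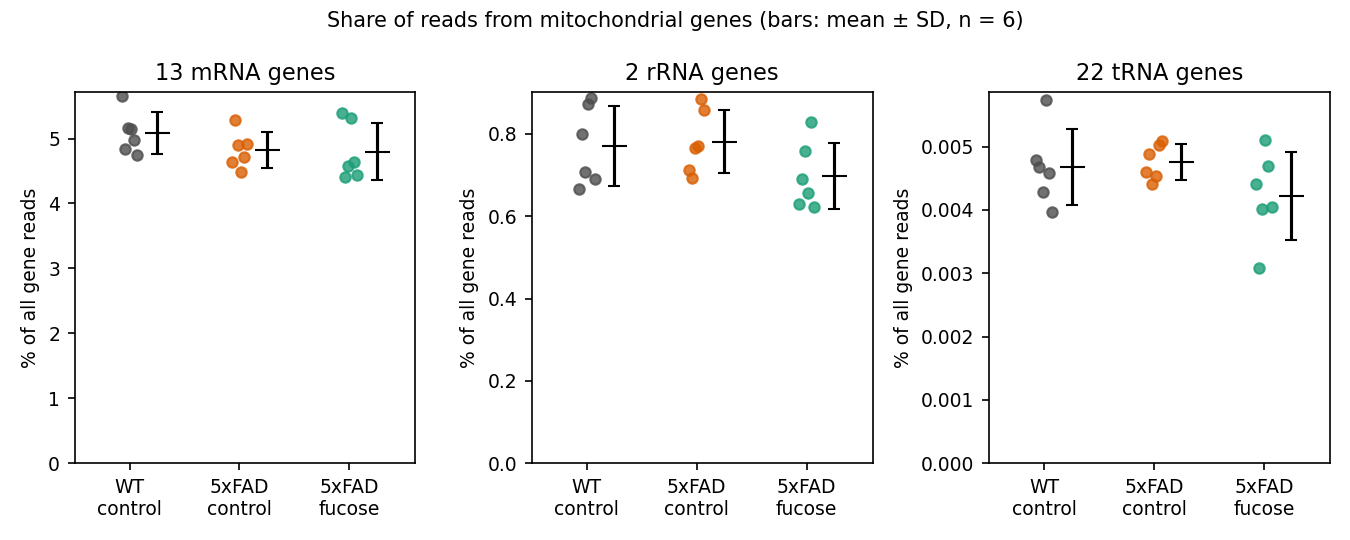
Percent of all gene reads from the 13 mRNA, 2 rRNA and 22 tRNA genes of the mitochondrial genome, 1 point per library, with mean and SD of 6 libraries beside each group and axes starting at 0. The groups overlap in all 3 classes, with mRNA means of 5.09%, 4.82% and 4.79%.

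Of the 37 genes, 20 passed the filter and were tested within a fit of 18808 genes, namely all mRNAs, both rRNAs and 5 tRNAs. In 5xFAD against WT on control diet, which asks what the transgenes change, 0 of the 20 were called by limma with Benjamini-Hochberg adjustment at a false discovery rate of 0.05, against 2.14% of all genes tested. edgeR and DESeq2 also called 0 of the 20, against 2.12% and 2.99% of all genes. An unadjusted p under 0.05 was reached by 1 of the 20, against 11.4% of all genes, and no member had groups that did not overlap, against 2.07% of all genes.

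That 1 gene was mt-Co1. It had 624171 to 692183 normalized counts (median 650553) in WT and 541961 to 644870 (median 597423) in 5xFAD on control diet. The WT libraries lay toward the top of the joint range, and the groups overlapped between 624171 and 644870. The log2 fold change was -0.15 ± 0.06 (SE), with an unadjusted p of 0.029 and a limma adjusted p of 0.356. mt-Nd2 had 186817 to 247218 (median 215349) normalized counts in WT and 174450 to 222645 (median 184797) in 5xFAD, a log2 fold change of -0.17 ± 0.09 (SE) with a limma adjusted p of 0.471.

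Of the 7 abundant mRNAs, 6 had lower and 1 (mt-Nd6) higher mean log2 values in 5xFAD, with a median log2 fold change of -0.08 beside -0.01 over all genes. All 7 had 95% intervals inside a 1.5-fold change in either direction, so a larger difference lay outside them. mt-Cytb had 329576 to 417766 normalized counts (median 382807) in WT and 330281 to 392872 (median 365659) in 5xFAD, ranges that begin at nearly the same value, the WT range reaching higher. The rRNAs differed by -0.04 ± 0.11 (mt-Rnr1) and 0.03 ± 0.09 (mt-Rnr2) on the log2 scale (SE), again inside 1.5-fold. Among the 6 low mRNAs, log2 fold changes ran from -0.30 (mt-Co2) to 0.31 (mt-Atp6), and 2 of the 6 intervals lay inside 1.5-fold. The value of mt-Co2 was -0.09 ± 0.29 (SE) with the counts of Gm28661 added, -0.17 without 5xFAD control library 1 and -0.46 without the 3 libraries of low Xist, and that of mt-Atp6 was 0.20 ± 0.22 (SE) with the counts of Gm10925 added. Of the 5 tRNAs, mt-Tp differed by -0.004 ± 0.110 (SE) and the others, all under 40 normalized counts, by 0.05 to 0.44.

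In 5xFAD on fucose against 5xFAD on control diet, which asks what the diet changes, 0 of the 20 were called by limma, against 0.00% of all genes tested, and edgeR and DESeq2 likewise called 0 members and 0 genes. An unadjusted p under 0.05 was reached by 1 of the 20, against 5.34% of all genes, and in 0 of the 20 were the groups free of overlap, against 0.186%. That gene was mt-Co3, with 3069 to 6218 normalized counts (median 4447) on fucose and 3401 to 19536 (median 7204) on control diet. The groups overlapped, and the highest value belonged to 5xFAD control library 2 alone. The log2 fold change was -0.72 ± 0.31 (SE), with an unadjusted p of 0.0352 and a limma adjusted p of 0.822. It was -0.43 without that library, and -0.44 ± 0.22 (SE) when the counts of Gm28437 were added to the gene.

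The rRNAs and mt-Tp had lower means on fucose. mt-Rnr1 had 92820 to 141418 normalized counts (median 107845) on fucose and 113188 to 144715 (median 123863) on control diet, and mt-Rnr2 131334 to 183227 (median 150239) and 154110 to 200187 (median 169798). Both pairs of groups overlapped over much of their ranges. The log2 fold changes were -0.19 ± 0.11 and -0.17 ± 0.09 (SE), with limma adjusted p-values of 0.822 for each. mt-Tp had 1072 to 1848 (median 1521) normalized counts on fucose and 1562 to 1862 (median 1705) on control diet, a log2 fold change of -0.20 ± 0.11 (SE). The 7 abundant mRNAs had log2 fold changes of -0.13 (mt-Nd6) to 0.14 (mt-Nd5), all with 95% intervals inside 1.5-fold.

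In 5xFAD fed fucose against WT fed control diet, 0 of the 20 were called by limma, edgeR or DESeq2, against 2.00%, 2.01% and 2.69% of all genes. An unadjusted p under 0.05 was reached by 1 of the 20, against 10.9% of all genes, and 0 of the 20 had groups without overlap, against 1.56%. That gene was mt-Rnr1, whose WT libraries held 108320 to 154496 normalized counts (median 133935) against the fucose range of 92820 to 141418. Its log2 fold change was -0.23 ± 0.11 (SE), with an unadjusted p of 0.0384 and a limma adjusted p of 0.424. The adjusted p was 0.148 without 5xFAD fucose library 5, the lowest of any member in any alternative tried. The 3 comparisons share groups, so their differences are not independent of one another.

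**Figure D4:**
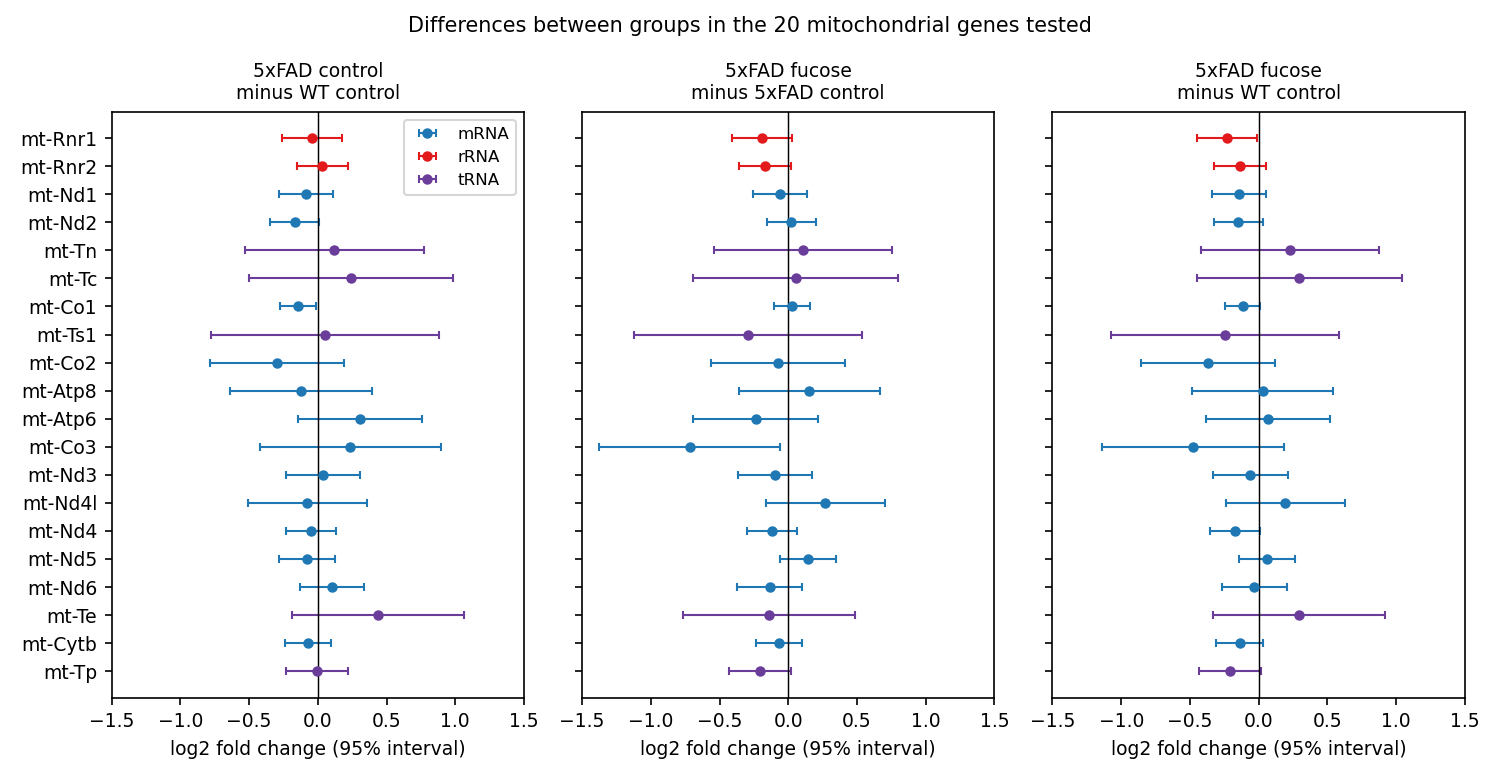
Log2 fold changes (points) with 95% intervals (bars) of the 20 tested mitochondrial genes in map order, in 3 panels: genotype on control diet (5xFAD minus WT), diet in 5xFAD (fucose minus control), and both together (5xFAD fed fucose minus WT fed control diet). mRNAs are blue, rRNAs red and tRNAs purple. The abundant mRNAs and the rRNAs have narrow intervals near 0, whereas the 4 low tRNAs and mt-Co3 have wide ones.

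Correlations over the 18 libraries are given for 6 pairs of members as a description with no test, because the pairs were picked with the values known and all points of a library share its size factor. mt-Rnr1 and mt-Rnr2 gave Pearson r = 0.94 and Spearman rho = 0.92, and r was 0.91 without the 2 libraries farthest from the median. Within groups r was 0.95 in WT, 0.98 in 5xFAD on control diet and 0.95 on fucose. mt-Nd1 and mt-Cytb gave r = 0.96 and rho = 0.95, and r was 0.94 without the 2 farthest libraries. mt-Nd1 and mt-Nd6, which lie on opposite strands, gave r = 0.86 and rho = 0.86, with r at 0.80 without the 2 farthest, and 0.90 to 0.98 within groups.

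2 further pairs had low values. mt-Nd1 and mt-Nd5, subunits of the same complex, gave r = 0.22 and rho = 0.23, and r was 0.44 without the 2 farthest libraries. mt-Nd1 and mt-Rnr2 gave r = 0.17 and rho = 0.01, and r was -0.18 without the 2 farthest. In the sixth pair, mt-Cytb and mt-Tp gave r = 0.72 and rho = 0.60, and r was 0.52 without the 2 farthest.

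**Figure D5:**
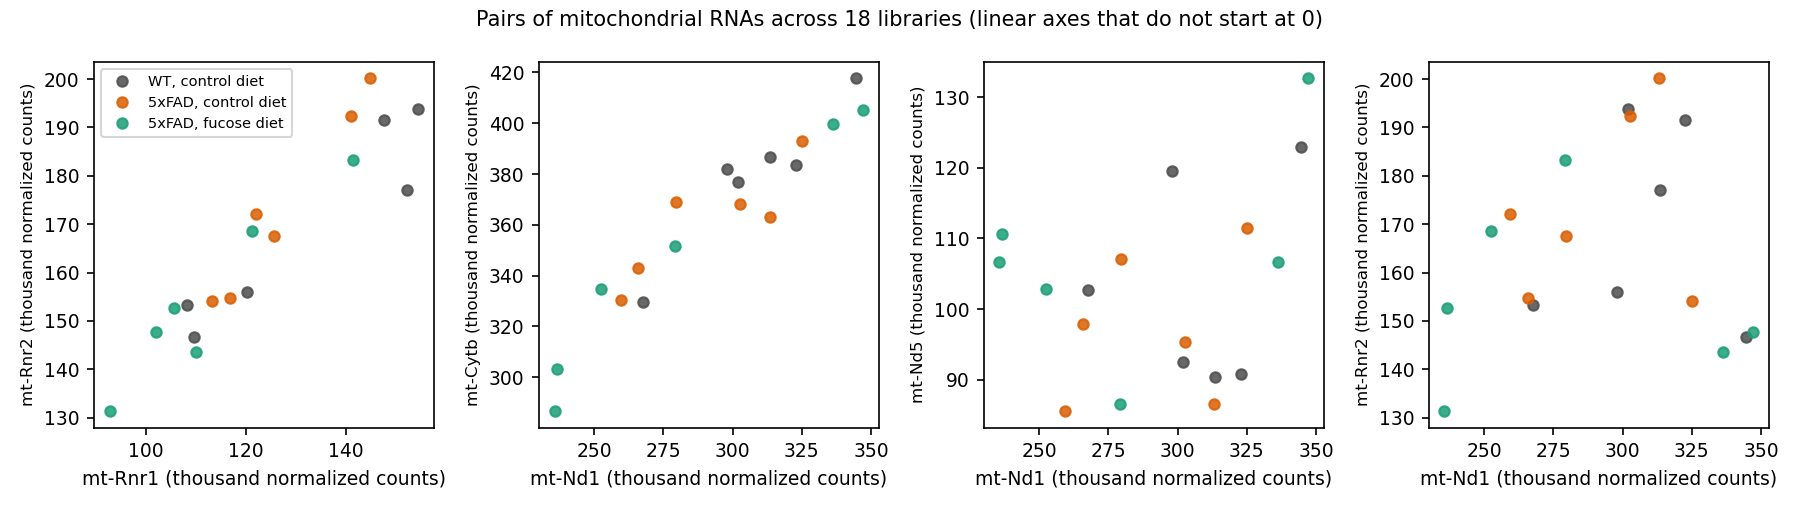
Normalized counts, on axes in units of 1000, of 4 pairs of mitochondrial RNAs, 1 point per library, coloured by group, with linear scales that do not start at 0. The rRNA pair and the mt-Nd1 and mt-Cytb pair form a line (r = 0.94 and 0.96), whereas mt-Nd1 with mt-Nd5 (r = 0.22) and mt-Nd1 with mt-Rnr2 (r = 0.17) scatter, with colours mixed in each.

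The ratio of classes differed between single libraries. rRNA reads amounted to 11.7 to 18.7 per 100 mRNA reads, with group means of 15.2 ± 2.3 in WT, 16.2 ± 2.0 in 5xFAD on control diet and 14.7 ± 2.4 on fucose (SD, n = 6). The lowest ratios were 11.8 in WT control library 1 and 11.7 in 5xFAD fucose library 1, and these libraries were in the top 3 of the 18 for 7 and 6 of the 7 abundant mRNAs. 5xFAD fucose library 6 was the lowest of all libraries for 5 of these 7 and for both rRNAs. mt-Rnr1 stood to mt-Rnr2 per length as 1.14 to 1.42, and mt-Nd6 had 40.6 to 77.1 reads per 100 mt-Nd5 reads. The genes of mt-Nd5 and mt-Nd6 overlap by their ends on opposite strands.

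Nuclear genes that make and use these RNAs were described by lists, and comparisons are given in the order 5xFAD against WT, fucose against control diet and fucose against WT. Over all genes tested limma called 2.14%, 0.00% and 2.00%, and 11.4%, 5.34% and 10.9% had an unadjusted p under 0.05. limma called 0 of the 15 genes of mtDNA transcription and replication in any comparison, and 1, 1 and 0 had an unadjusted p under 0.05, with median log2 fold changes of 0.04, -0.01 and 0.03. The smallest unadjusted p-values were those of Polg2, the accessory subunit of the mtDNA polymerase, in 5xFAD against WT (123 ± 11 against 90.4 ± 15 normalized counts, log2 fold change 0.45 ± 0.19, limma adjusted p = 0.314), and of Polg, its catalytic subunit, in fucose against control diet (1679 ± 161 against 1380 ± 175, 0.29 ± 0.12, limma adjusted p = 0.822). Of 26 RNA processing and modification genes 0 were called by limma, with 2, 1 and 1 at an unadjusted p under 0.05 in the 3 comparisons. There 1110008L16Rik, a synonym in RefSeq of Prorp, the nuclease of mitochondrial RNase P that cuts tRNA 5′ ends, had 263 ± 39 normalized counts in 5xFAD against 184 ± 49 in WT (log2 fold change 0.55 ± 0.18, limma adjusted p = 0.166). Its partner Trmt10c had 361 ± 56 on fucose against 458 ± 53 on control diet (-0.35 ± 0.13, limma adjusted p = 0.822).

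limma also called 0 of 6 RNA stability genes, 19 mitochondrial aminoacyl-tRNA synthetases, 9 regulators of biogenesis and 12 tested mitophagy genes in any comparison. An unadjusted p under 0.05 was reached by 0, 0 and 1 of the stability genes, 2, 2 and 1 of the synthetases, 2, 1 and 4 of the regulators and 0, 0 and 0 of the mitophagy genes, against 11.4%, 5.34% and 10.9% of all genes. Lars2, which charges leucine tRNA, had 5180 ± 470 normalized counts in WT, 4357 ± 800 in 5xFAD on control diet and 5165 ± 521 on fucose. Its log2 fold changes were -0.26 ± 0.10 in 5xFAD against WT (limma adjusted p = 0.276) and 0.26 ± 0.10 in fucose against control diet (limma adjusted p = 0.822). Ppargc1b, a transcriptional coactivator of mitochondrial biogenesis, had 139 ± 12 in WT, 90.2 ± 31 in 5xFAD on control diet and 137 ± 25 on fucose, with log2 fold changes of -0.68 ± 0.20 (limma adjusted p = 0.0943) and 0.64 ± 0.20 (limma adjusted p = 0.822). Both of these opposite differences rest on the same 5xFAD control libraries. Its relative Ppargc1a had log2 fold changes of -0.24 ± 0.11 in 5xFAD against WT (limma adjusted p = 0.432) and -0.35 ± 0.11 in fucose against WT (limma adjusted p = 0.169).

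The nuclear-encoded partners of the mitochondrial subunits, 45 genes of complexes I, III, IV and V, had 0 members called by limma in each comparison, with 0, 15 and 10 at an unadjusted p under 0.05, against 11.4%, 5.34% and 10.9% of all genes. In fucose against control diet 43 of 45 had lower mean values, and their median log2 fold change was -0.18 beside -0.004 over all genes. The 7 abundant mitochondrial mRNAs had a median of -0.06 in the same comparison, with 4 lower and 3 higher, and the 2 rRNAs a median of -0.18. Cox7b, a complex IV subunit, had 4559 ± 600 normalized counts on fucose against 5388 ± 586 on control diet (-0.24 ± 0.09, limma adjusted p = 0.822), and Ndufc2, of complex I, 3718 ± 405 against 4431 ± 553 (-0.25 ± 0.10, limma adjusted p = 0.822). In 5xFAD against WT the median of the 45 was 0.02, with 16 lower and 29 higher. In fucose against WT 44 of 45 had lower mean values, with a median of -0.15. The 7 abundant mitochondrial mRNAs had a median of -0.14 there, with 6 lower and 1 higher. Among 5 genes of complex II and cytochrome c, which hold no mitochondrially encoded protein, limma called 0, with 0, 1 and 1 at an unadjusted p under 0.05 and medians of -0.04, -0.09 and -0.13.

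Cell type markers moved with genotype beside these values. In 5xFAD against WT on control diet, 4 of 6 microglia markers and 1 of 6 astrocyte markers rose, against 1.97% of all genes called higher. In 5xFAD on fucose against WT the counts were again 4 of 6 and 1 of 6, against 1.91% of all genes, and in fucose against control diet they were 0 and 0, against 0.00%. Summed microglia markers ran from 9888 to 12125 normalized counts in WT, 17807 to 20273 in 5xFAD on control diet and 15592 to 23252 on fucose. Csf1r, the receptor that microglia need to survive, had a log2 fold change of 0.85 ± 0.08 (SE; limma adjusted p = 2.36e-07), and Gfap, the filament protein of reactive astrocytes, 2.55 ± 0.14 (limma adjusted p = 2.11e-10). Of the 6 astrocyte markers 4 had higher and 2 lower mean log2 values in 5xFAD on control diet than in WT. The lower ones were Slc1a2, a glutamate transporter, at -0.17 ± 0.07 (SE; limma adjusted p = 0.362), and Gja1, a gap junction protein, at -0.01 ± 0.08. In both comparisons with WT 5 of 6 microglia and 4 of 6 astrocyte markers had an unadjusted p under 0.05, and 0 of either list did in fucose against control diet. Among 7 neuron, 6 oligodendrocyte, 5 endothelial, 5 choroid plexus, 6 blood cell and 5 muscle markers limma called 0 in any comparison. At an unadjusted p under 0.05 stood 1 neuron marker in fucose against WT (10.9% of all genes), 1 endothelial marker in 5xFAD against WT (11.4% of all genes) and 1 blood cell marker in each of these comparisons.

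Mean log2 values of neuron markers were lower in 7 of 7 in 5xFAD against WT (median log2 fold change -0.13) and in 6 of 7 in fucose against WT (median -0.10), none of them called, beside lower values in 6 of the 7 abundant mitochondrial mRNAs in 5xFAD against WT. Summed neuron markers ran from 219938 to 267082 normalized counts in WT, 213738 to 240059 in 5xFAD on control diet and 210464 to 240406 on fucose, and these ranges overlapped. In fucose against control diet 6 of 6 blood cell markers had higher values (median 0.64) and 5 of 5 choroid plexus markers lower ones (median -0.31), again none called. No marker of these lists was at 0 in every library. Summed blood cell markers reached 36664 in 1 fucose library against at most 14700 in the other groups, and summed choroid plexus markers ran from 20223 to 135545 over all libraries. Of 16 RNAs listed for lacking a poly(A) tail, 4 passed the filter, 4 were at 0 in every library, and 0 were called by limma (1, 0 and 1 at an unadjusted p under 0.05). Their sums ran from 1673 to 2466 (median 2016) normalized counts in WT, 2334 to 2787 (median 2557) in 5xFAD on control diet and 1875 to 3591 (median 2426) on fucose. In 5xFAD on control diet most of the sum came from the histone genes Hist1h1c (1257 ± 219) and Hist1h2bc (1183 ± 107). Whether the counted RNAs of these genes lacked a tail was not tested. Hist1h1c, a linker histone, had a log2 fold change of 0.58 ± 0.20 (SE) in 5xFAD against WT (limma unadjusted p = 0.00777, limma adjusted p = 0.179). The part of cell makeup and of poly(A) selection in the mitochondrial values was not tested.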

How the data were processed

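RNA of mouse brain was measured in 18 libraries. The deposited values are a normalized signal: gene counts that the authors divided by 1 size factor per library, while the table's name speaks of raw counts. All values were whole multiples of 1 read within a tolerance of 0.001, so reads were recovered. Per the submitters' processing notes, build mm10 was used, with featureCounts 2.0.3, HISAT2 2.2.1, DESeq2 2.11.40.8 and Trimmomatic 0.39. Neither the annotation nor strand use in counting is given in the sources used here. Start positions in the table count from 0, and 1 was added; all 37 genes then had the coordinates of GENCODE M21.

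The test was limma 3.58.1 (R 4.3.3) on log2(normalized count + 1), fitted once over the 18 libraries with a mean-variance trend and robust moderation, on 18808 genes kept by filterByExpr of edgeR 4.0.16 on recovered reads (minimum count 10). Fold changes are on this log2 scale and understate those of low genes. Benjamini-Hochberg adjustment ran over all tested genes, with calls at 0.05. Alternatives were other scalings, pseudocounts and filters, fewer libraries, the replicate number, Xist, edgeR and DESeq2 1.42.0. Adding each chromosome 1 copy to its gene was chosen after seeing the data. The limma step was tested on simulated data. SD is given for groups, and limma's moderated SE for log2 fold changes.

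Copies were found with blastn 2.17.0 among annotated transcripts, because no genome sequence was used here; the rule first set, longer matches on the genome itself, was therefore not applied. Named genes are all rRNA and mRNA members, tRNAs that passed the filter, and list members that were called or had the smallest p-values; mt-Tt and the copies were added after their values were seen. The members and all lists were chosen with earlier results of these data known. 2 stray cells of the table were not used. 1 marker that the naming rule takes is not reported here by name.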

Additional observations from a re-analysis of the deposited data

Results flagged for a closer look

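In 7 of 90 groups of 6 libraries examined for 20 members, 7 chromosome 1 copies and 3 class shares, 1 library stood far from the other 5. Chance alone flags about 1 in 20 such groups. One of the 7 was a mitochondrial gene and 6 were chromosome 1 copies. mt-Co3 had 19536 normalized counts in 5xFAD control library 2, against 3401 to 8464 in the others of its group. Gm29216 had 14424 in 5xFAD fucose library 1 (others 3365 to 6238), and Gm28661 had 31263 in 5xFAD fucose library 5 (others 3355 to 12306). Gm10925 had 13447 in 5xFAD control library 5 (others 4408 to 7784). Gm28438 had 524 in 5xFAD fucose library 5 (others 324 to 398), Gm10222 had 398 in WT control library 6 (others 125 to 215), and Gm28439 had 2645 in WT control library 4 (others 1069 to 1436). None of the 7 abundant mRNAs, the rRNAs, the tRNAs or the class shares was among them.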

How the results depend on the processing

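No member was called in any of the 3 comparisons under any of the 26 alternatives run for each, edgeR, DESeq2 and the removal of each library included, and the lowest adjusted p was 0.148. Of 60 combinations of gene and comparison, 41 kept their sign throughout; among 1560 recomputed values, none of them called, 54 changed sign. Among the scalings, the median log2 fold change of all genes was highest in fucose against WT with counts scaled to all gene reads of a library, at 0.024. In the main fit of that comparison the median was -0.010. The replicate numbers did not pair the libraries: deviations of same-numbered libraries correlated at -0.06 to 0.33, -0.17 to 0.08 and -0.13 to 0.18 in the 3 comparisons, and 2, 1 and 2 of 6 libraries correlated best with their own number. With the replicate block 0 members were called, and 439, 0 and 412 genes in place of 402, 0 and 376. Leaving out 1 library at a time, the difference in mRNA share ran from -0.356 to -0.151 percentage points in 5xFAD against WT, from -0.149 to 0.0618 in fucose against control diet, and from -0.413 to -0.181 in fucose against WT. Without the 5xFAD control library 2, mt-Co3 differed by -0.05 rather than 0.24 in 5xFAD against WT. What keeps the counts of the 17 tRNAs that did not pass the filter low was not tested. Where one of them had a count of 0, up to 3 reads are allowed, or 2.66 to 3.72 normalized counts. That covers counting error only, since reads are not independent molecules.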
